A study of Mus musculus with 8 samples.

Results

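The core circadian clock genes examined here were *Per1*, *Per2*, *Per3*, *Cry1*, *Cry2*, *Arntl*, *Clock*, *Nr1d1*, *Nr1d2* and *Dbp*. They were taken by name, and every probe carrying 1 of the 10 gene symbols was used, which gave 18 probes among the 41174 probes and 27962 gene names of a whole-genome mouse array. The samples were RNA pools from the ipsilateral (right) brain hemisphere of male C57BL/6J mice, aged 8 to 12 weeks per the labels (the study's methods give a single age within that range). Mice received permanent middle cerebral artery occlusion (PMCAO) with an intraluminal filament, which is not reopened, or a sham operation, and directly afterwards 1 pmol of the neuropeptide PACAP38 in 1 µL of saline, or saline alone, into a cerebral ventricle. Brains were taken 6 h or 24 h later, so the 8 groups were sham or PMCAO with saline or PACAP38 at each time, and each group was 1 pool of equal RNA from 3 mice. PMCAO mice had been chosen by a mild to moderate neurological grade, and each hemisphere mixed infarct core, penumbra and non-ischemic tissue, without olfactory bulb and cerebellum.

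The clock is a transcriptional feedback loop that runs in nearly every cell and keeps daily time. CLOCK and ARNTL (also called BMAL1) pair up and switch on the *Per*, *Cry*, *Nr1d* and *Dbp* genes through E-boxes, and the PER and CRY proteins return to the nucleus and shut their own activators down. The REV-ERB receptors encoded by *Nr1d1* and *Nr1d2* close another loop by repressing *Arntl*, while DBP drives genes with D-boxes. *Per1* also answers quickly to cyclic AMP and glucocorticoid signals, and PACAP is itself a transmitter of the retinal pathway that carries light information to the suprachiasmatic nucleus, the master clock. The hour of day at which surgery was done is not given in the sources used here, so every difference between times compares unknown phases of the day.

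The promoters of the members were read for short motifs tied to these loops and signals. RefSeq promoter windows (GRCm38.p6, 250 bases before to 50 after a start site) were found for 9 of the 10 members, 13 windows in all, and not for *Per2*. They were searched on both strands for the E-box CACGTG, the D-box TTATGTAA, the REV-ERB half-site AGGTCA and the cyclic AMP response half-site TGACGT, none of which contains another. The E-box was in windows of *Per1* and *Cry1* and in 7.15% of all 32851 mouse promoter windows. The D-box was in *Per3* alone among the members, against 0.94% of all windows. The half-site AGGTCA was in windows of *Arntl*, *Clock*, *Nr1d2* and *Per1*, against 16.26% of all windows, and TGACGT was in 1 window of *Per1*, against 7.51%. The stretches of 100 bases below are shown as examples of the E-box, the D-box and the half-site AGGTCA, with the matches in capitals (TGACCT is AGGTCA read from the other strand). They lie at chr11:69098749-69098848 (plus strand, *Per1*), chr10:85185065-85185164 (minus strand, *Cry1*), chr4:151044796-151044895 (minus strand, *Per3*) and chr14:18239137-18239236 (minus strand, *Nr1d2*).
Per1: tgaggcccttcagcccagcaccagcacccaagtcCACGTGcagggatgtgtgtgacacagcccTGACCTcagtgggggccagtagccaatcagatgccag
Cry1: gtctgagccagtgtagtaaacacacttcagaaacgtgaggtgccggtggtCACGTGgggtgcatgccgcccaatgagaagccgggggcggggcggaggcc
Per3: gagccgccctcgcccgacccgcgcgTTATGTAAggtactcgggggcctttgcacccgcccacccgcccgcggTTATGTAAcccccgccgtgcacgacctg
Nr1d2: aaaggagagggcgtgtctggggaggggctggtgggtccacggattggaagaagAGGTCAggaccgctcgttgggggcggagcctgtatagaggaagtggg
The *Per1* stretch carries its E-box upstream of an AGGTCA match, *Cry1* an E-box, *Per3* a pair of D-boxes and *Nr1d2* a single half-site. A match of letters is a description of the window and not evidence that a factor binds there in this tissue.

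Each gene was followed by its brightest probe, a 60-base oligonucleotide whose position the array files give on the older mouse build mm7. These probes lay at chr7:109229489-109229548 for *Arntl*, chr5:76144675-76144734 for *Clock*, chr11:69190950-69191009 for *Per1*, chr1:91323914-91323973 for *Per2*, chr4:149994689-149994748 for *Per3*, chr10:84673350-84673409 for *Cry1* and chr2:92254922-92254981 for *Cry2*. Those for *Nr1d2* and *Dbp* lay at chr14:16018965-16019024 and chr7:41886169-41886228. The *Nr1d1* probe spans chr11:98878251-98878753, longer than an oligonucleotide of this kind. Whether a probe lies in an exon or a UTR was not analysed here. No member was saturated in any of the 16 channels (8 arrays with 2 dyes), and 9 of the 10 were well above background in all of them. The probe of *Per3*, its only one, was well above background in 14.

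On each array the PACAP38 and the saline pool of 1 surgery and time were hybridised together in different dyes, Cy5 and Cy3, and a second array carried the same RNA with the dyes exchanged. The pair is therefore a technical repeat of 1 pool per group, and within a comparison there is no spread between animals and no test. The sham 6 h array with PACAP38 in Cy3 stood apart. The scanner software had marked 10.7% of its spots as outliers, against 0.323% to 3.09% on the other 7 arrays, and 50.5% of its brightest spots (top 10% by Cy5 signal) against 0.323% to 25.7%. Among the leading probes, *Nr1d2*, *Dbp*, *Cry1* and *Cry2* were marked there, and *Dbp* was also marked on the PMCAO 6 h array with PACAP38 in Cy3. PMCAO over sham at 6 h and the differences between times use this array and are given with and without it where its removal changes them. Without it each 6 h difference of PMCAO over sham comes from 1 dye, saline in Cy3 and PACAP38 in Cy5. The PMCAO 6 h array with PACAP38 in Cy3 then drops out of that comparison too. Both values come from the same pair of arrays, 1 sham and 1 PMCAO. The 6 h arrays and the 24 h arrays were on different slides and scanners, so time and slide cannot be told apart.

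The first question was whether PACAP38 moved the clock genes. A difference here is the log2 ratio of PACAP38 over saline, averaged over the 2 arrays, and a value was called past the fold threshold above 1.5-fold (0.585 on the log2 scale) or below 0.75-fold (-0.415). In sham mice at 6 h, 1 of the 10 genes passed, *Per3*, beside 10.8% of all probes. In PMCAO mice at 6 h, 1 passed, *Cry1*, beside 12.2%. At 24 h none passed in sham mice, beside 5.62%, and none in PMCAO mice, beside 11.2%. Over all 18 probes the counts were 3, 2, 0 and 1, the last of them the second probe of *Cry1*. These counts lie near or below the share of all probes. The members' median log2 ratio was 0.11, 0.07, -0.04 and 0.20 in sham 6 h, PMCAO 6 h, sham 24 h and PMCAO 24 h, against 0.00 for all probes in each.

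*Arntl*, the partner that gives the activating complex its rhythm, was the 1 member whose mean was above 0 in all 4 comparisons. Its log2 ratios on the arrays with PACAP38 in Cy5 and in Cy3 were -0.14 and 0.31 in sham 6 h, 0.60 and 0.41 in PMCAO 6 h, 0.27 and 0.11 in sham 24 h, and 0.46 and 0.34 in PMCAO 24 h. It was higher with PACAP38 on both arrays in all but the sham 6 h comparison. Averaged over the comparisons the difference was 0.29 (SE 0.09, 95% interval 0.08 to 0.51, n = 4 pairs of pools), and limma gave an unadjusted p of 0.0153 and an adjusted p of 0.963 over 20609 probes. *Arntl* therefore did not pass. All 4 means were above 0 for 6.27% of all probes.

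*Clock*, the other partner, stayed closer to 0, with means of -0.05, 0.17, 0.06 and 0.07 in the same order. Its 2 arrays lay on opposite sides of 0 in each of the 4 comparisons, as in sham 6 h (-0.26 and 0.16) and PMCAO 6 h (0.37 and -0.03). The interval of its mean difference ran from -0.10 to 0.23.

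*Per1*, the light- and cyclic AMP-responsive repressor, had ratios of 0.21 and 0.33 in sham 6 h, -0.24 and 0.46 in PMCAO 6 h, -0.49 and 0.96 in sham 24 h, and -0.83 and 0.30 in PMCAO 24 h, with PACAP38 in Cy5 and Cy3 respectively. The arrays agreed in sign in sham 6 h alone, and at 24 h they differed by up to 1.46 for the same RNA. The mean difference over comparisons was 0.09 (SE 0.10, 95% interval -0.16 to 0.34). *Per2*, its paralog, gave means of 0.13, 0.31, -0.08 and 0.48 and an interval of -0.04 to 0.46. In PMCAO 24 h both of its arrays were above 0 (0.67 and 0.29).

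*Per3*, the *Per* gene considered least needed for the rhythm itself, gave 0.67 and 0.55 in sham 6 h, which averaged to 1.53-fold. The pair of arrays read -0.69 and 0.55 in PMCAO 6 h, -0.68 and 0.39 in sham 24 h, and 0.07 and 0.89 in PMCAO 24 h. Its spots were dim, and with normexp background correction the sham 6 h ratio was 0.13.

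*Cry1*, the stronger repressor of the CRY pair, gave 1.21 and 0.05 in PMCAO 6 h, so its 1.54-fold mean rested on 1 of the 2 arrays. Its other probe gave 0.48, 0.20, 0.18 and 1.03 in sham 6 h, PMCAO 6 h, sham 24 h and PMCAO 24 h, the last being 2.04-fold, against 0.31 for the leading probe in PMCAO 24 h. Spots of both *Cry1* probes were dim, though well above background in all 16 channels. With normexp background correction the 1.54-fold value became 0.19 and the 2.04-fold value 0.52 on the log2 scale, both short of the fold threshold. *Cry2* had means of 0.32, 0.04, 0.00 and 0.10, the first from a single unmarked spot.

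Among the REV-ERB genes, *Nr1d1* had means of 0.17, -0.26, -0.13 and -0.30, and in both 24 h comparisons its arrays were below 0 (-0.25 and -0.02, then -0.31 and -0.29). *Nr1d2* had means of -0.14, -0.01, -0.09 and 0.17, the first from 1 spot. *Dbp*, the output factor, had means of 0.03, -0.34, -0.26 and 0.23, the first 2 from 1 spot each. *Dbp* lay on opposite sides of 0 in sham and PMCAO mice at 24 h, -0.34 and -0.18 against 0.12 and 0.33. The test of that kind of difference, PACAP38 over saline in PMCAO minus sham over both times, called 0 of 17 member probes with marked spots kept (smallest adjusted p 0.86, limma).

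**Figure D1:**
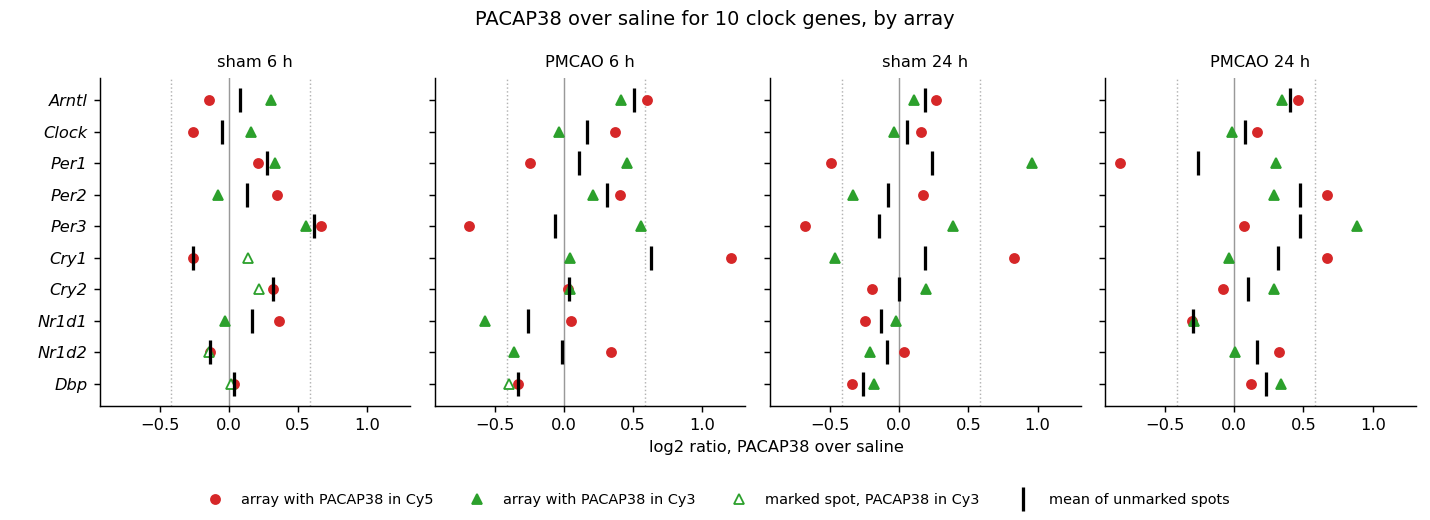
Log2 ratio of PACAP38 over saline (horizontal axis) for the leading probe of each of the 10 clock genes in the 4 comparisons. Each point is 1 array, with symbols for the dye that held PACAP38 and open symbols for marked spots, bars mark the mean of unmarked spots, and dotted lines are the 1.5-fold and 0.75-fold thresholds. The pair of arrays of a gene often fell on opposite sides of 0, as for *Per1* at 24 h.

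The distance between arrays of the same RNA sets the precision. Its median over the members with an unmarked value on both arrays was 0.41 in sham 6 h, 0.62 in PMCAO 6 h, 0.31 in sham 24 h and 0.34 in PMCAO 24 h. The arrays agreed in sign for 2 of 6, 4 of 9, 3 of 10 and 6 of 10 members. Over the 4 comparisons limma called 0 of 12 member probes tested, and 0 of all 20609 probes (0%), of which 891 had an unadjusted p under 0.05. Without the sham 6 h comparison it again called 0 of 12 and 0 of 20609, of which 998 had an unadjusted p under 0.05. The tests of whether the PACAP38 difference itself differed between sham and PMCAO, or between 6 h and 24 h, called 0 of 12 member probes each. Here and below, the 12 held the leading probes of 5 members, *Arntl*, *Clock*, *Nr1d1*, *Per1* and *Per2*. *Cry1* and *Cry2* entered by their second probes alone, and *Per3*, *Nr1d2* and *Dbp* were not tested. The 17 probes tested with marked spots kept, or without the sham 6 h array, held the leading probes of 9 members, all but *Per3*.

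The next question was how the clock genes stood after occlusion. Sham and PMCAO pools were on different arrays, so a level here is the log2 signal of a channel relative to that channel's 75th percentile, and PMCAO was compared with sham in the same dye, treatment and time. At 24 h, where 0.323% to 0.429% of spots were marked, *Per2* had the largest difference among the 10 leading probes.

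*Per2* levels at 24 h were -0.20 in sham saline, -0.28 in sham PACAP38, -1.11 in PMCAO saline and -0.65 in PMCAO PACAP38 (n = 1 pool each). Both PMCAO pools were below both sham pools, and so they were in each dye taken alone. PMCAO over sham was -0.91 with saline, which is 0.533-fold (-0.86 in Cy3 and -0.95 in Cy5), and -0.36 with PACAP38, which is 0.778-fold (-0.34 and -0.38). The mean of the 2 pairs was -0.63 (SE 0.155, 95% interval -1.02 to -0.25), and limma's adjusted p of 0.0722 missed the threshold of 0.05. With normexp and loess in place of the scanner's processed signals the difference was called, with an adjusted p of 0.0243 by limma. Without the sham 6 h array limma called 0 of 17 member probes at 24 h, with a smallest adjusted p of 0.181. That array enters the 24 h test only through the variance, which the fit shares over both times. The other *Per2* probe gave differences of 0.19 with saline and 0.08 with PACAP38. At 6 h the *Per2* levels were -0.15, -0.01, -0.33 and -0.02 in the same order, with no separation of the groups, and PMCAO over sham without the sham 6 h array was 0.10 with saline and 0.17 with PACAP38.

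*Dbp* levels at 24 h were 4.65 in sham saline, 4.39 in sham PACAP38, 4.10 in PMCAO saline and 4.31 in PMCAO PACAP38. The PMCAO pools were again the lower ones, by 0.08 for the PACAP38 pair, whose dyes disagreed (0.05 in Cy3 and -0.21 in Cy5), and by more for the saline pair (-0.65 and -0.46, mean -0.55, 0.682-fold). *Nr1d2* followed the same order, at 2.28 and 2.19 in the sham pools and 1.94 and 2.09 in the PMCAO pools, with differences of -0.34 and -0.10. *Arntl* read 0.52 and 0.71 in sham and 0.16 and 0.55 in PMCAO, with differences of -0.37 and -0.17. *Clock* differed by -0.16 in each pair. *Nr1d1* was on the other side, at -0.44 and -0.58 in sham and -0.09 and -0.40 in PMCAO, with differences of 0.36 and 0.18.

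The remaining members were split at 24 h. *Per1* differed by 0.48 with saline and -0.03 with PACAP38, *Per3* by -0.10 and 0.51, *Cry1* by 0.08 and 0.20, and *Cry2* by 0.02 and 0.11. Past the fold threshold were *Per2* and *Dbp* in the saline pools, 2 of 10 beside 22.9% of all probes, and none in the PACAP38 pools, beside 14.6%. In 7 of the 10 genes the PMCAO difference was farther from 0 with saline than with PACAP38 (*Clock* by less than its printed decimals), as it was for 65.6% of all probes. limma called 0 of 12 member probes at 24 h beside 6.15% of all probes. The 95% intervals of the mean over the 2 pairs were -0.61 to 0.08 for *Arntl*, -0.43 to 0.10 for *Clock*, -0.14 to 0.60 for *Per1* and -0.08 to 0.61 for *Nr1d1*. With marked spots kept they were -0.49 to 0.05 for *Nr1d2* and -0.72 to 0.08 for *Dbp*.

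**Figure D2:**
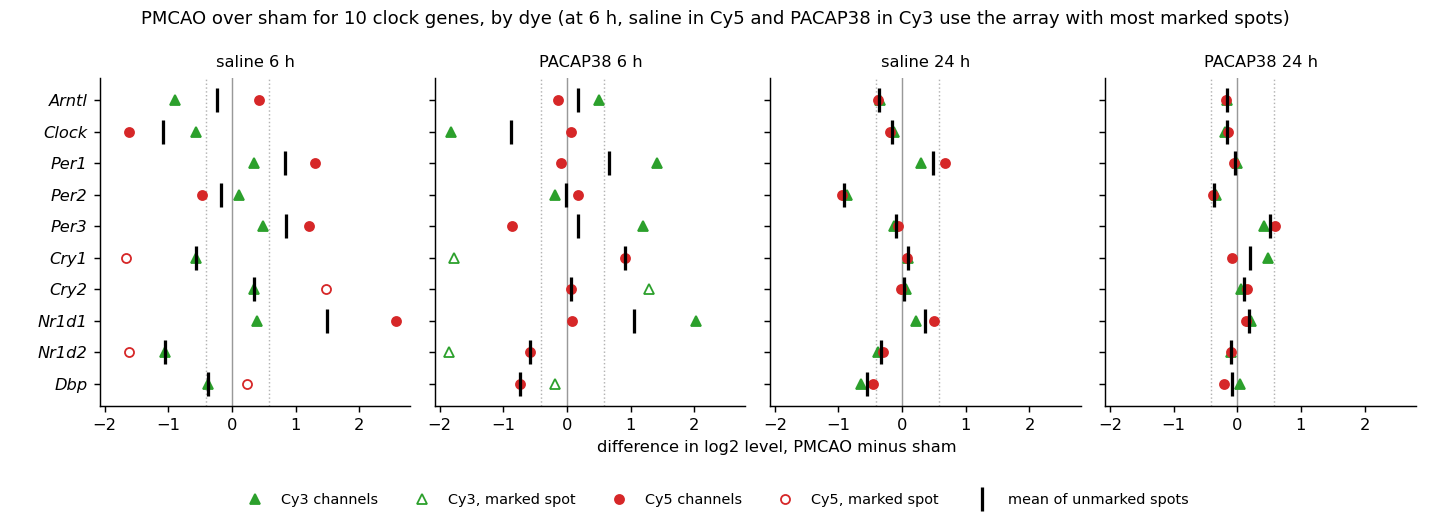
Log2 level in PMCAO minus sham (horizontal axis) for the leading probe of each clock gene at 6 h and 24 h with saline or PACAP38. Each point is 1 dye, open symbols involve a marked spot, bars mark the mean of unmarked spots, and dotted lines are the fold thresholds. The dyes lay close together at 24 h, as for *Per2*, and far apart at 6 h, as for *Nr1d1* (0.40 in Cy3 and 2.58 in Cy5 with saline).

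At 6 h the same comparison depended on the dye. With marked spots kept, the median distance between the Cy3 and Cy5 differences was 1.00 with saline and 1.39 with PACAP38, against 0.07 in both 24 h pairs. The largest differences between dyes involved the sham 6 h array with PACAP38 in Cy3, which supplies the sham level for saline in Cy5 and for PACAP38 in Cy3. For *Nr1d1* these differences were 2.58 and 2.02, against 0.40 and 0.08 in the channels of the other arrays. For *Clock* they were -1.61 and -1.82 against -0.57 and 0.07, and for *Per1* 1.30 and 1.41 against 0.35 and -0.10.

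With all arrays, 6 of 10 members were past the fold threshold in saline pools at 6 h, beside 50.3% of all probes, and 6 of 10 in PACAP38 pools, beside 44.9%. Without that array 4 of 10 passed with saline, all lower in PMCAO (*Cry1*, *Arntl*, *Clock* and *Nr1d2*), beside 33.8%. With PACAP38 4 of 10 passed (*Cry1* higher, and *Per3*, *Nr1d2* and *Dbp* lower), beside 27.9%. limma called 8 of 12 member probes at 6 h with all arrays, beside 62.6% of all probes, and 0 of 17 without the array, beside 3.41%. The called leading probes were *Clock* (-0.98, SE 0.11), *Nr1d1* (1.27, SE 0.14) and *Per1* (0.74, SE 0.15), with adjusted p of 0.00119, 0.0012 and 0.00778 by limma. Without the array they were -0.25, 0.24 and 0.13, with adjusted p of 0.400, 0.304 and 0.681. The saline and PACAP38 values of a time come from the same arrays and are not fully independent, so these SEs measure less than the spread between mice.

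Of the members whose leading probe was marked on that array, *Nr1d2* and *Dbp* were lower in PMCAO in the channels of the other arrays. *Nr1d2* levels with marked spots kept were 3.34 in sham saline, 3.21 in sham PACAP38, 2.01 in PMCAO saline and 1.99 in PMCAO PACAP38. The unmarked differences were -1.06 with saline in Cy3 and -0.58 with PACAP38 in Cy5. Their mean without the array was -0.82 (SE 0.16, limma p 0.00439, adjusted p 0.0662), short of the threshold. *Dbp* differed by -0.38 and -0.74, with a mean of -0.56 and an adjusted p of 0.120 by limma. Without the array, *Nr1d2*, *Dbp* and *Arntl* were lower in PMCAO in all 4 pairs of treatment and time, and *Cry2* and *Nr1d1* were higher in all 4. Of all probes, 11.26% were lower and 24.52% higher in all 4 pairs. With all arrays the members lower in all 4 were *Per2*, *Clock*, *Nr1d2* and *Dbp* and those higher were again *Cry2* and *Nr1d1*, beside 14.37% and 27.29% of all probes. Averaged over the 4 pairs, limma called 0 of 12 member probes beside 0.548% of all probes, and 0 of 17 without the array.

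Whether the PMCAO difference itself changed from 6 h to 24 h was tested directly. With all arrays 7 of 12 member probes were called, beside 43.1% of all probes, among them *Clock* (0.82) and *Nr1d1* (-1.0). Without the sham 6 h array none of 17 was called, beside 0.0731%, and the values were 0.09 and 0.03.

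The 24 h and 6 h pools of the same surgery and treatment were compared last, with slide and time together in the difference. Without the sham 6 h array 39.73% of all probes were lower at 24 h in all 4 pairs, and 15.99% were higher. Among the members, *Arntl* and *Cry1* were lower in all 4 there, and *Clock* was higher. With all arrays *Arntl* was also lower at 24 h than at 6 h in all 4 pairs. Its levels at 6 h were 0.93 in sham saline, 1.01 in sham PACAP38, 0.69 in PMCAO saline and 1.19 in PMCAO PACAP38, and at 24 h 0.52, 0.71, 0.16 and 0.55. The 4 differences were -0.41, -0.30, -0.53 and -0.65, and *Arntl* fell by 0.47 on average (SE 0.12, limma adjusted p 0.0464, and 0.0957 with median scaling). Without the sham 6 h array it fell by 0.65 (SE 0.11, adjusted p 0.00794). The call was lost when any 1 of the 4 pairs was left out, with adjusted p from 0.0937 to 0.154.

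*Cry1* was lower at 24 h as well. With marked spots kept its differences were -2.16, -1.92, -0.97 and -1.30 (mean -1.59, SE 0.23, adjusted p 0.013), and without the array -1.28, -0.19, -0.97 and -1.30 (mean -0.93, SE 0.20, adjusted p 0.0158, limma). The other *Cry1* probe gave 1.05, 0.74, -0.84 and -0.03, so the probes of this gene disagreed. *Clock* differed by -0.01 on average with all arrays and by 0.41 without that array (SE 0.11, adjusted p 0.0338, limma). *Per2* differed by -0.05 and -0.27 in the sham pairs and by -0.78 and -0.63 in the PMCAO pairs (mean -0.43, limma adjusted p 0.105). Without the array the sham pairs were 0.32 and 0.15, on the other side of 0 from the PMCAO pairs, and the mean was -0.24 (limma adjusted p 0.418).

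*Nr1d1*, the repressor of *Arntl*, differed by 1.34 and 1.03 in the sham pairs and by 0.21 and 0.16 in the PMCAO pairs, and its mean was 0.68 with all arrays (adjusted p 0.0903, limma) and 0.17 without the array. *Nr1d2* and *Dbp* averaged -0.20 and -0.25 without the array, with adjusted p of 0.276 and 0.175. limma called 4 of 12 member probes with all arrays, all lower at 24 h, beside 20.9% of all probes, and with median scaling 4 of 12, 2 higher and 2 lower. Without the array 7 of 17 were called, 2 higher and 5 lower, beside 31.1%.

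**Figure D3:**
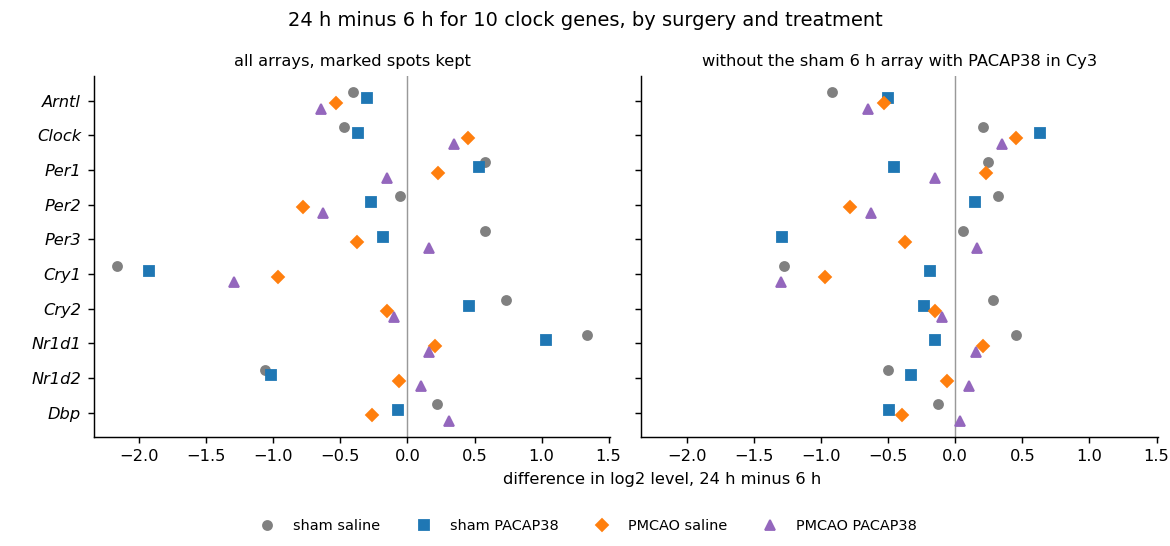
Difference of level at 24 h minus 6 h (log2, horizontal axis) for the leading probe of each clock gene, with 1 point for each of the 4 pairs of pools of the same surgery and treatment, using all arrays (left) or leaving out the sham 6 h array with PACAP38 in Cy3 (right). *Arntl* and *Cry1* lay below 0 in all 4 pairs in both panels. Of all probes 39.73% did so without that array, and time and slide cannot be told apart.

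Of the 10 members 5 have more than 1 probe, and probes of a gene could lie on opposite sides of 0. The 3 probes of *Nr1d1* gave mean 24 h minus 6 h differences of 0.68, -0.42 and -2.29, the last of them called with an adjusted p of 0.00449 by limma. Without the sham 6 h array they gave 0.17, -0.95 and -2.60, the last 2 called (adjusted p 0.00424 and 7.2e-05, limma). The second probe of *Per2* gave -1.39 (limma adjusted p 0.0269) against -0.43 for the leading one, and -1.81 (adjusted p 0.000397) against -0.24 without the array. These further probes were dim. Mean levels were -3.38 and -3.90 for the last 2 probes of *Nr1d1* against -0.72 for its leading one, and -4.47 against -0.34 for *Per2*. The 4 probes of *Clock* were lower in PMCAO than in sham at 6 h with saline in every case, from -1.12 to -0.56 with all arrays and from -0.57 to -0.30 without the sham 6 h array. With PACAP38 at 6 h they ran from -0.88 to -0.06, and without that array from -0.09 to 1.12 with 3 of the 4 above 0. At 24 h with saline 3 of the 4 were lower, from -0.31 to 0.29 over all of them. The 3 *Nr1d1* probes were higher in PMCAO than in sham in the saline pools at both times (0.79 to 1.49 at 6 h, 0.32 to 0.89 without the array, and 0.04 to 0.36 at 24 h). In the PACAP38 pools they were higher at 6 h (0.57 to 1.25, and 0.08 to 0.19 without the array), and at 24 h 1 of the 3 was above 0 (-0.10 to 0.18).

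**Figure D4:**
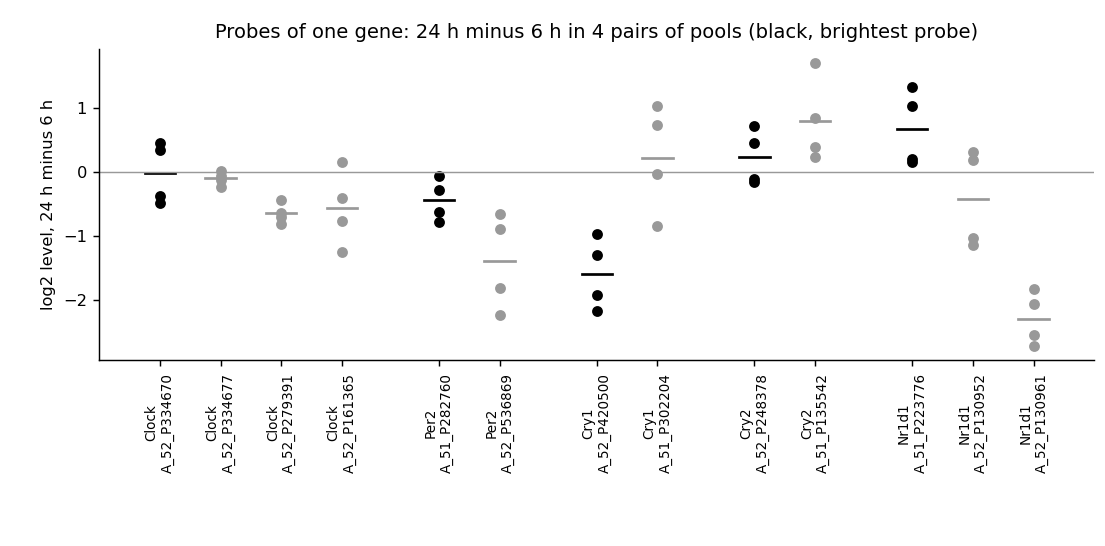
Level at 24 h minus 6 h (log2, vertical axis) of every probe of the 5 clock genes with more than 1 probe, with marked spots kept. Points are the 4 pairs of pools, lines their means, and the leading probe of a gene is black. Mean values of *Nr1d1* and *Cry1* probes lay on opposite sides of 0.

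A list of other clock genes held 20, all on the array, among them the casein kinases that phosphorylate PER and the *Dbp* relatives *Hlf* and *Tef*. Of 14 tested, PACAP38 over saline called none and PMCAO over sham at 24 h none (median -0.05, against -0.02 for all probes). At 6 h 9 of 14 were called with all arrays, 3 higher and 6 lower, beside 62.6% of all probes, and 0 of 18 without the sham 6 h array, beside 3.41%. Between times limma called 1 of 14 higher and 3 lower at 24 h, beside 20.9% of all probes. Among the lower ones were *Csnk1e* (-0.68), a kinase of PER, and *Wee1* (-0.51), a cell cycle kinase under clock control. Without the array 6 of 18 were called, all lower, beside 31.1% of all probes. *Csnk1e* and *Wee1* were again among them, and so were *Nampt*, *Nfil3* and *Ciart*.

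A list of genes that answer to glucocorticoids, signals that also reach *Per1*, held 8 genes, 7 of them on the array and 5 tested. PMCAO over sham at 24 h was called up for 3 of 5, *Sgk1* (named Sgk on the array, 1.54), *Pdk4* (1.01) and *Cdkn1a* (2.46), beside 6.15% of all probes. Their adjusted p were 0.0143, 0.0237 and 0.0125 by limma. Without the sham 6 h array none of the 3 passed (limma adjusted p 0.0933, 0.0933 and 0.0662), beside 48 of 24633 probes called. The 24 h differences do not use that array and were the same. What differed was the variance that limma shares over both times, and the set of probes tested. Of the others tested, *Fkbp5* differed by 1.47 in both 24 h pairs and *Tsc22d3* by 0.37 and 0.39, and neither was called with all arrays. *Cdkn1a*, a cell cycle inhibitor that p53 also induces, and *Pdk4*, a mitochondrial kinase that responds to fasting, were past the fold threshold in all 4 pairs, at 2.47, 1.67, 2.69 and 2.22 and at 1.06, 1.23, 1.20 and 0.81. At 6 h both were called with the array, beside 62.6% of all probes. They were also called without it (limma adjusted p 0.0476 and 0.023), beside 3.41%. *Sgk1*, *Tsc22d3* and *Fkbp5* were not called at 6 h. With all arrays they were -0.30, -0.21 and 1.07 with saline and 0.06, -0.35 and -0.53 with PACAP38. Between times *Sgk1* and *Tsc22d3* were called lower at 24 h by limma, 2 of 5 beside 20.9% of all probes. Without the sham 6 h array the same genes were called, 2 of 6 beside 31.1%. For *Per1*, PMCAO over sham was called at 6 h with all arrays and not without that array, and at 24 h it was called in neither case.

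The clock genes were read in mixed tissue, where fewer cells of a type and less RNA per cell cannot be told apart. The 3 neuronal markers on the array were lower in PMCAO than in sham in both 24 h pairs (medians -0.08 and -0.10), and their summed level was 6.56 to 6.58 in sham and 6.41 to 6.51 in PMCAO (log2). The 5 astrocyte markers summed to 4.79 to 4.83 in sham and 5.22 to 5.37 in PMCAO at 24 h, and the 4 microglia and macrophage markers to 2.89 to 2.97 and 2.55 to 2.65. Of these, 1 astrocyte marker was lower in PMCAO with saline and 2 with PACAP38, and 3 microglia and macrophage markers with each. With saline at 24 h the oligodendrocyte markers summed to 7.06 in sham and 7.36 in PMCAO. The endothelial ones summed to 2.72 and 3.38, and the choroid plexus ones to 2.25 and 2.23. With PACAP38 the sums were 7.02 and 6.94, 3.05 and 2.93, and 2.08 and 1.87. Of 4 suprachiasmatic and hypothalamic markers all but *Six6* were well above background in all channels, and their sum was 1.97 to 2.02 in sham and 1.91 to 2.26 in PMCAO at 24 h. The cerebellar granule cell markers *Gabra6* and *Cbln3* were not well above background in all channels, and the 4 of that list summed to 3.15 to 3.42 in sham and 2.98 to 3.11 in PMCAO at 24 h. The part of these shifts in the *Per2* and *Dbp* values was not tested.

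Finally, the named genes whose pattern over the 8 pools was most like a member's, after removing the mean of each time, were listed as a description from 22507 probes. For *Per1* they were *Fkhl18* (r = 0.99), *Lgmn* and *March3*, for *Dbp* *Lrrc3b* (0.95), *Gli2* and *Cxcl14*, for *Nr1d1* *Slc4a2* (1.00), *C1qtnf6* and *Slc2a6*, and for *Arntl* *Pcgf6* (0.99), *Dhx36* and *Sacm1l*. The same probes gave 0.99, 0.94, 1.00 and 1.00 for the first of each without the 2 sham 6 h pools, with 6 points that share arrays and slides.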

How the data were processed

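Total RNA of each pool was labelled in Cy3 and Cy5 and hybridised to 8 two-colour Agilent mouse arrays. The authors deposited the scanner software's output, background-subtracted and dye-normalised, with log10 ratios of Cy5 over Cy3 and processed intensity per spot. Deposited scanner marks (saturation, outlier, well above background) served as other flags. The deposited value table of the series held a score whose size equalled the Cy5/Cy3 ratio within 0.005, with a minus sign on arrays with PACAP38 in Cy3 and the plain ratio on the others. That sign was not read as a direction. This table was used only as an alternative.
PACAP38 over saline was the log ratio turned to that direction, averaged over the dye pair. Levels were log2 processed intensity minus the channel's 75th percentile over all non-control spots. Spots marked as outliers were left out as values. limma 3.58.1 (R 4.3.3) was run on probes with a value on all arrays and at least 1 channel well above background on each, with Benjamini-Hochberg adjustment over all probes tested and a threshold of 0.05. The code used Python 3.11.15, pandas 2.3.3 and numpy 2.4.6. On simulated data for the mean of PMCAO over sham, 148 of 200 probes changed by 2 (log2) were called, with 7 others, of 20609. The simulated pairs were independent, whereas real pairs of a time share arrays, so these counts do not measure the error in these data.
The 2 arrays of a pair hold the same RNA and counted as 1 replicate, with 1 pool of 3 mice (300 ng each, 900 ng per labelling) per group. Whether pools shared a cage or day is not given in the sources used here. The saline and PACAP38 differences of a time share arrays, so p-values measure the spread between these pools and their arrays. The number of arrays limits the precision. The members and lists were chosen with earlier results of these data known. For each gene the probe with the highest mean level leads. Genes beside the members were named where called by limma or past the fold threshold in all 4 pairs, or where among the 3 most like *Per1*, *Dbp*, *Nr1d1* or *Arntl*. Tested genes of the glucocorticoid list were named in any case. Alternatives were normexp (offset 50) with loess, median, quantile and unmarked-percentile scaling, marked spots kept, single dyes, no dim filter, a trended prior, leaving out each pair, and, chosen after seeing the data, leaving out the sham 6 h array with PACAP38 in Cy3. Results for some other clock genes are not reported here.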

Additional observations from a re-analysis of the deposited data

Results flagged for a closer look

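The difference of PMCAO over sham between 24 h and 6 h was called by limma for 7 clock gene probes with all arrays. The 24 h minus 6 h values were 0.82 for *Clock* (probe A_52_P334670), -1.33 for *Cry1* (A_51_P302204), -0.96 for *Cry2* (A_51_P135542), -1.0, -1.34 and -0.69 for *Nr1d1* (A_51_P223776, A_52_P130952 and A_52_P130961) and -1.25 for *Per2* (A_52_P536869). None was called without the sham 6 h array with PACAP38 in Cy3, on which 10.7% of spots were marked. The part of the marked spots in these differences was not tested.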

How the results depend on the processing

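No paired analysis was possible because the numbers that the labels share are dye orientations of the same RNA, averaged before the fit. Among 72 limma values of single members 57 kept their side of the threshold and sign, 14 no longer passed and 1 changed sign. Sign changed in 30 of 235 values of PACAP38 over saline under the alternatives, none of them past the fold threshold, and in 32 of 316 of PMCAO over sham, 6 of them past it. Leaving out the sham 6 h array changed 6 of 20 signs. PACAP38 values past the fold threshold numbered 2 of 40, 10 of 40 on arrays with PACAP38 in Cy5 alone, 4 of 35 in Cy3 alone and 0 with normexp and loess. PMCAO values past it at 24 h numbered 2 of 20, 4 in Cy5 alone, 4 with median scaling, 1 with 1.5-fold either way, 1 with the mean of all probes and 1 of 12 with quantile normalisation. At 6 h they numbered 12 of 20, and 6 of 12 with quantile normalisation. Member probes called by limma for 24 h minus 6 h numbered 4, 1 to 2 with a pair left out, and 7 without the sham 6 h array. For the PMCAO difference between times they numbered 7, as few as 4 with the PACAP38 24 h pair left out, and 0 without that array. At 24 h they numbered 0, and 1 with the PACAP38 24 h pair left out or with normexp. At 6 h they numbered 8, and 0 without that array. The changes of sign among called values were *Nr1d1* between times (0.0264 without the array), *Clock* and *Per1* with PACAP38 at 6 h (0.0678 and -0.10 in Cy5 alone and without the array), *Cry1* with PACAP38 at 6 h (-0.43 with marked spots kept) and *Cry1* with saline at 6 h (0.37 as the mean of all probes). Over all probes the 6 h calls split into 7558 higher and 5336 lower, 4970 and 7977 with median scaling, 4122 and 9148 with the unmarked percentile, and 740 and 99 without the array, where the median of all probes was 0.11, -0.16, -0.27 and 0.03. Between times they split into 1715 higher and 2584 lower, 4302 and 1761 with median scaling, and 563 and 6253 with the unmarked percentile (median 0.01, 0.17 and -0.36). Calls at 24 h split into 840 and 428, 718 and 698 with median scaling, 1521 and 1663 with normexp, 490 and 236 with quantile normalisation, and 41 and 7 without the array. The difference between times had 8889 calls, and 18 without the array, and the mean over pairs 113, 4 with median scaling, 0 with normexp or a trended prior and 83 without the array. The causes were not tested, and the number of pools limits what could be detected.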
